A study of Mus musculus with 8 samples.

Results

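The xenobiotic cytochrome P450 genes of mouse liver were examined as a set of 34 genes chosen by name: members of the Cyp1a, Cyp2 and Cyp3a subfamilies, Cyp39a1, and Por, which encodes their electron donor. Of the 34 genes, 32 were found on the array under their own symbol. Cyp2c40 and Cyp2c69 had no probe under that symbol, and their expression was not tested. The probes of Cyp2b13 and Cyp3a44 were not well above background on any array, which left 30 genes tested out of 14591 tested in all. The name of the set holds for most of its members, but Por is a reductase, Cyp39a1 an oxysterol hydroxylase, and Cyp2j5 and Cyp2u1 are best known for oxidising fatty acids.

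Cytochromes P450 are haem enzymes of the endoplasmic reticulum that insert an oxygen atom into drugs, toxins, steroids and fatty acids, using electrons that P450 oxidoreductase, the product of Por, takes from NADPH. Hepatocytes hold most of them, and many are induced by the compounds they clear through receptors that sense foreign chemicals: the aryl hydrocarbon receptor for Cyp1a genes, the constitutive androstane receptor (Nr1i3) for Cyp2b genes and the pregnane X receptor (Nr1i2) for Cyp3a genes. Cyp2c genes are controlled by several of these receptors and by liver-enriched factors, and a number of mouse P450 genes differ between the sexes.

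Total liver RNA was collected on day 6 from bl6 mice aged 12 weeks and fed chow. The control group received a pblockITcontrol adenovirus and the shRaly group a pblockITshRaly adenovirus, whose hairpin targets the RNA-binding protein gene Raly, and the labels give a dose of 2e+09 without a unit for both. Each group had 4 single-colour Agilent arrays. The labels number the samples without saying that each came from a different mouse, so the p-values below measure the spread between these samples, and in whole liver fewer cells of a type and less RNA per cell cannot be told apart. All 8 arrays lay on 1 slide with the control arrays in one slide row and the shRaly arrays in the other, so that the effect of group cannot be told apart from that of slide row. The Raly signal stood at 62.7% of the control mean in the shRaly group (log2 difference -0.67, SE 0.15, limma adjusted p = 0.0775; exact two-sided permutation p = 0.0286, the smallest that 4 against 4 arrays can give). On shRaly 1 to 4 it was 51.8%, 81.1%, 58.2% and 62.9%, against 84.2% on control 2, the lowest control. Hepatocyte markers such as Alb were bright on every array, while Ddx3y and Eif2s3y, both on the Y chromosome, exceeded background clearly on each of the 8 arrays. Of the other Y-linked genes looked at, Uty did so on 3 control and 2 shRaly arrays and Kdm5d on none, and Xist did so on none.

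P450 subfamilies consist of close copies, and the probe decides which copy is read. The probes were compared with one another, not with the transcripts of other genes. A low likeness between probes therefore does not show that each reads its own gene alone. The Cyp2c37 and Cyp2c50 probes were the most alike of 496 pairs of probes among the 32 genes, with 26 of 30 bases alike in their best ungapped window, while the other 495 pairs had fewer than 20 of 30. Their windows are shown because both genes are among the 4 whose groups did not overlap; capitals mark the bases that differ.
Cyp2c37 (mm9 chr19:40086467-40086526, plus strand): cacactggacaCactgACttttatccaGtt
Cyp2c50 (mm9 chr19:40188154-40188213, plus strand): cacactggacaTactgCTttttatccaTtt

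For 4 of the 43 probes of these genes the files list RefSeq transcripts of more than 1 gene. Both Cyp2a4 probes are also listed for Cyp2a5, so that the Cyp2a4 signal is that of both genes. A further Cyp3a11 probe is listed for Cyp3a11, Cyp3a41a, Cyp3a41b and Cyp3a44, whereas the Cyp3a11 probe used here is listed for Cyp3a11 alone. The exon-spanning probes of these families are shown in full, with no base marked.
Cyp2a4 and Cyp2a5 (mm9 chr7:27098659-27099724, plus strand): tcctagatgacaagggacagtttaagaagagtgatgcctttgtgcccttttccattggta
Cyp3a11, Cyp3a41a, Cyp3a41b and Cyp3a44 (mm9 chr5:146672058-146673925, minus strand): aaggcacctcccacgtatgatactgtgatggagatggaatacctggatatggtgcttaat

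The Cyp2u1 probe with the highest mean signal (94020, linear scanner units) is not a specific one: it holds a GT repeat of 32 bases, marked in capitals in the 30 bases shown, and the files list no RefSeq gene for it. The other Cyp2u1 probes had mean signals of 422 and 181. As the brightest, the repeat probe stands for Cyp2u1 in the counts and medians below.
Cyp2u1 (mm9 chr3:130996343-130996402, minus strand): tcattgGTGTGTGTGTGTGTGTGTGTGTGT

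None of the 30 P450 genes tested passed the threshold of 0.05 on limma's adjusted p in either direction, where 1.21% of all genes did (177 of 14591, with 0.308% higher and 0.905% lower in shRaly livers). The smallest adjusted p was that of Cyp2c54, 0.168. At an unadjusted limma p under 0.05 stood 8 of the 30, 6 lower and 2 higher in the shRaly group, beside 9.55% of all genes lower and 6.65% higher. All of the 6 were Cyp2c genes (Cyp2c54, Cyp2c50, Cyp2c37, Cyp2c39, Cyp2c38 and Cyp2c29), and the 2 were Cyp2a4 and Cyp1a1. In 4 genes the groups did not overlap, as in 10.4% of all genes. In these 4 every shRaly array was lower than every control (6.26% of all genes), and in 0 every shRaly array was higher (4.13%).

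The estimated differences were small in most members, but their intervals stayed within 1.5-fold less often than those of all genes. The median log2 difference over the 30 genes was -0.13, beside -0.02 over all genes, and 19 of 30 (53.1% of all genes) were below 0. The 95% interval of the difference stayed within 2-fold either way for 26 of the 30 genes and within 1.5-fold for 15, where 91.5% and 68.2% of all genes did so. The 4 genes with wider intervals than 2-fold were Cyp2b9, Cyp2b10, Por and Cyp1a1. By subfamily the medians were 0.31 for Cyp1a (2 genes), 0.22 for Cyp2a (2), -0.29 for Cyp2b (2), -0.34 for Cyp2c (10), -0.14 for Cyp2d (4) and -0.15 for Cyp3a (4). For the 6 genes outside them the median was 0.15, with Cyp2u1 read by its repeat probe. Single arrays weighed on some of these medians: without shRaly 1 the Cyp2d median was -0.04, and without control 4 the Cyp3a median was -0.03.

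**Figure D1:**
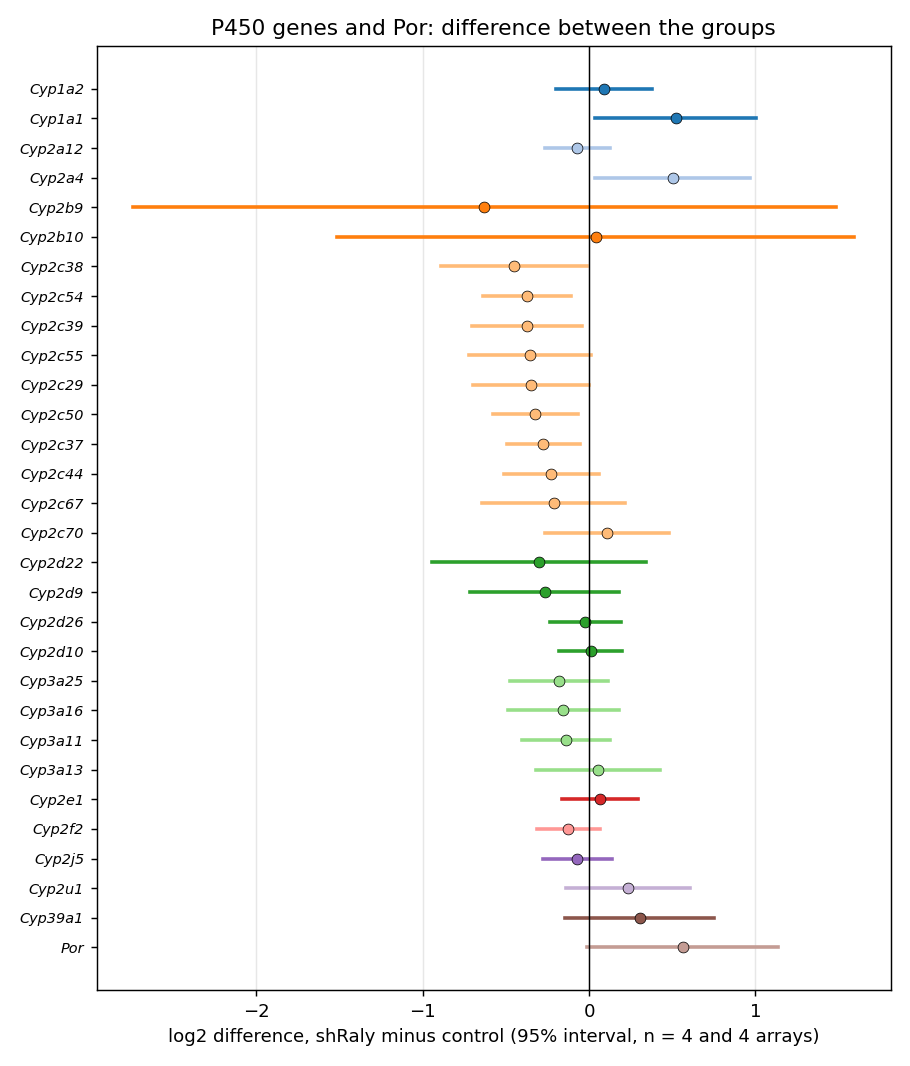
Log2 difference between the shRaly and the control group (x axis) for each of the 30 genes tested (y axis, coloured by subfamily), with its 95% interval from limma over 4 and 4 arrays. Of the 10 Cyp2c genes, 9 lie to the left of 0, where 53.1% of all genes do, and the intervals of Cyp2b9 and Cyp2b10 are the widest.

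The enzymes of the Cyp2c genes oxidise drugs and turn arachidonic acid into epoxides. Of the 10 genes tested, 9 had a difference below 0, where 53.1% of all genes did. The log2 differences of the 9 lay between -0.45 and -0.21, and Cyp2c70 stood at 0.11. Array shRaly 1 was the lowest for 8 of the 10, so they are not separate observations. No Cyp2c gene passed the adjusted threshold. The 10 genes lie on chromosome 19, and 9 of them, from Cyp2c55 (mm9 chr19:39116674-39116733) to Cyp2c70 (chr19:40227969-40228028), form 1 cluster, with Cyp2c44, whose current RefSeq symbol is Cyp2c23, farther along the chromosome (chr19:44079535-44079594).

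Cyp2c54, which encodes an epoxygenase of arachidonic acid, had log2 signals relative to the array's 75th percentile of 7.35, 7.27, 7.31 and 7.55 on control arrays 1 to 4, and of 6.72, 7.12, 7.11 and 7.04 on shRaly arrays 1 to 4. The groups did not overlap, and shRaly 1 was the lowest array. The shRaly mean was 77.2% of the control mean (log2 difference -0.37, SE 0.12, 95% interval -0.64 to -0.11, limma adjusted p = 0.168). The other Cyp2c54 probes past the filter had differences of -0.50 and -0.49, with SEs of 0.27 and 0.25.

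Cyp2c50, its neighbour, measured 7.50, 7.38, 7.49 and 7.64 in controls and 6.91, 7.30, 7.28 and 7.23 in shRaly livers. Again the groups did not overlap and shRaly 1 stood lowest, at 66.1% of the control mean where the other shRaly arrays were at 83.0% to 87.0%. The log2 difference was -0.32 (SE 0.11, adjusted p = 0.209 by limma). Cyp2c37, whose probe resembles that of Cyp2c50, measured 6.29, 6.07, 6.01 and 6.10 in controls and 5.70, 5.96, 5.86 and 5.85 in shRaly livers. Its groups were separated by a narrow gap, with shRaly 2 just under control 3. The log2 difference was -0.27 (SE 0.10, limma adjusted p = 0.213), and -0.57 (SE 0.20) with its other probe, in a different place of the gene (chr19:40084382-40084441).

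Cyp2c39, which encodes a retinoic acid hydroxylase, gave 4.70, 4.40, 4.40 and 4.85 in controls and 3.89, 4.34, 4.28 and 4.35 in shRaly livers. The groups did not overlap, though controls 2 and 3 lay close to shRaly 2 and 4, and the log2 difference was -0.37 (SE 0.15, limma adjusted p = 0.262). Cyp2c38 had 7.09, 6.31, 6.42 and 6.92 in controls and 5.89, 6.34, 6.37 and 6.31 in shRaly livers. Here controls 2 and 3 were level with shRaly 2, 3 and 4, and the gap came from high values on controls 1 and 4 and a low value on shRaly 1 (log2 difference -0.45, SE 0.19, limma adjusted p = 0.298). The other Cyp2c38 probe was far dimmer, with a mean signal of 82 against 24144 for the probe used. It had a difference of -0.07 with an SE of 0.31.

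Cyp2c29, a target of the constitutive androstane receptor, measured 7.46, 7.35, 7.13 and 7.52 in controls and 6.60, 7.19, 7.20 and 7.07 in shRaly livers. The groups overlapped, since shRaly 2 and 3 were above control 3. The shRaly mean was 78.5% of the control mean (log2 difference -0.35, SE 0.15, limma adjusted p = 0.307). Cyp2c55, which is induced through the same receptor and the pregnane X receptor, had 1.01, 0.51, 0.40 and 0.79 in controls and 0.12, 0.26, 0.63 and 0.27 in shRaly livers, with overlapping groups and a log2 difference of -0.36 (SE 0.16, limma adjusted p = 0.321).

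Of the remaining Cyp2c genes, Cyp2c44 had a log2 difference of -0.23 (SE 0.13) and Cyp2c67 of -0.21 (SE 0.19). Cyp2c67 had its highest value on control 2, at 7.63 against 6.70 to 6.95 on the other controls, and a further Cyp2c67 probe, listed also for Cyp2c40 and Cyp2c68, differed by -0.24. Cyp2c70, a bile acid hydroxylase of rodents that makes muricholic acids, measured 7.26, 7.73, 7.60 and 7.51 in controls and 7.19, 7.83, 7.80 and 7.71 in shRaly livers. It did not share the direction of its neighbours: array 1 was the lowest in each group, and the other shRaly arrays lay near or above the highest control (log2 difference 0.11, SE 0.16, limma adjusted p = 0.794).

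Array shRaly 1 was the lowest of the 8 arrays for 8 of the 10 Cyp2c genes. The median over the 10 genes, each relative to its control mean, was -0.58 on shRaly 1 and -0.19, -0.23 and -0.31 on shRaly 2 to 4, against 0.10, -0.07, -0.11 and 0.12 on the controls. Without shRaly 1, 9 of the 10 genes were still below 0 and the median was -0.23, with Cyp2c54 at -0.28, Cyp2c50 at -0.23 and Cyp2c29 at -0.21. None of the 17 hepatocyte markers tested passed the threshold, where 1.21% of all genes did. Of the 17, 14 had a difference below 0 (median -0.08), where 53.1% of all genes did. Alb, the albumin gene, stood at 77.6% of control (log2 difference -0.37, SE 0.13, limma adjusted p = 0.23), with its lowest value, 9.73, on shRaly 1 against 10.01 to 10.48 elsewhere. Tat, an enzyme of tyrosine breakdown in the same list, had a log2 difference of 0.45 (SE 0.19, limma adjusted p = 0.304), and was named after its value was seen. The summed level of the hepatocyte markers, on the log2 scale, was 13.40 to 13.52 on control and 13.24 to 13.50 on shRaly arrays, with shRaly 1 (13.25) and shRaly 3 (13.24) the lowest. Its part in the Cyp2c values was not tested.

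**Figure D2:**
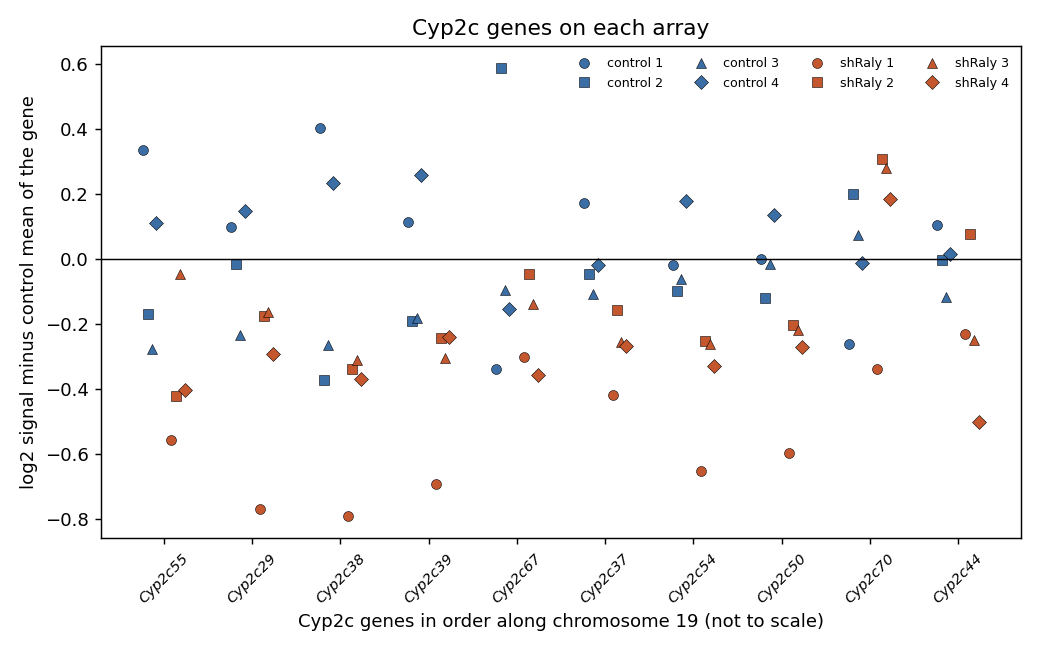
Log2 signal of each Cyp2c gene on each array minus the gene's control mean (y axis), with genes in their order along chromosome 19 (x axis, not to scale); marker shapes give the array number and colours the group. All shRaly points lie below 0 from Cyp2c55 to Cyp2c50, with shRaly 1 lowest for most genes, and 3 of 4 shRaly points of Cyp2c70 lie above 0.

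The Cyp2b genes varied more between arrays of the same group than they differed between groups. Cyp2b10, the classical target of the constitutive androstane receptor, stood at 248%, 73.2%, 24.7% and 223% of the control mean on control arrays 1 to 4, a 10.1-fold range, and at 123%, 62.6%, 93.1% and 156% on the shRaly arrays, a 2.49-fold range. Controls 1 and 4 were the highest arrays of all and control 3 the lowest, so that the shRaly values fell inside the control range. The log2 difference was 0.04 (SE 0.69, 95% interval -1.52 to 1.60, limma adjusted p = 0.984). The interval runs from 35.0% to 302% of the control level, so that a 2-fold difference either way was not detectable in this gene with these arrays.

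Cyp2b9, a female-biased gene, showed the same order of the controls: its log2 signals were -1.45, -4.01, -6.27 and -2.03 on controls 1 to 4 and -4.64, -4.36, -4.04 and -3.24 in shRaly livers. It was well above background on 2 arrays of each group only. The log2 difference was -0.63 (SE 0.93, limma adjusted p = 0.79). Cyp2b13, also female-biased, gave no signal well above background.

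The spread between arrays of a group, pooled over both groups, was an SD of 1.60 on the log2 scale for Cyp2b9 and 1.18 for Cyp2b10, higher than in 99.9% and 99.7% of all genes tested. The Cyp2b9 value rests in part on arrays where it was not well above background: with normexp in place of the scanner's background correction its log2 difference was -0.18 and its SE 0.24, below the 0.25 of Cyp2d22, while the SE of Cyp2b10 was 0.57. The median SD was 0.23 over the 30 genes and 0.19 over all genes. Next came Cyp2d22 with 0.47 and Por with 0.42, and the lowest was Cyp2d10 with 0.08.

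**Figure D3:**
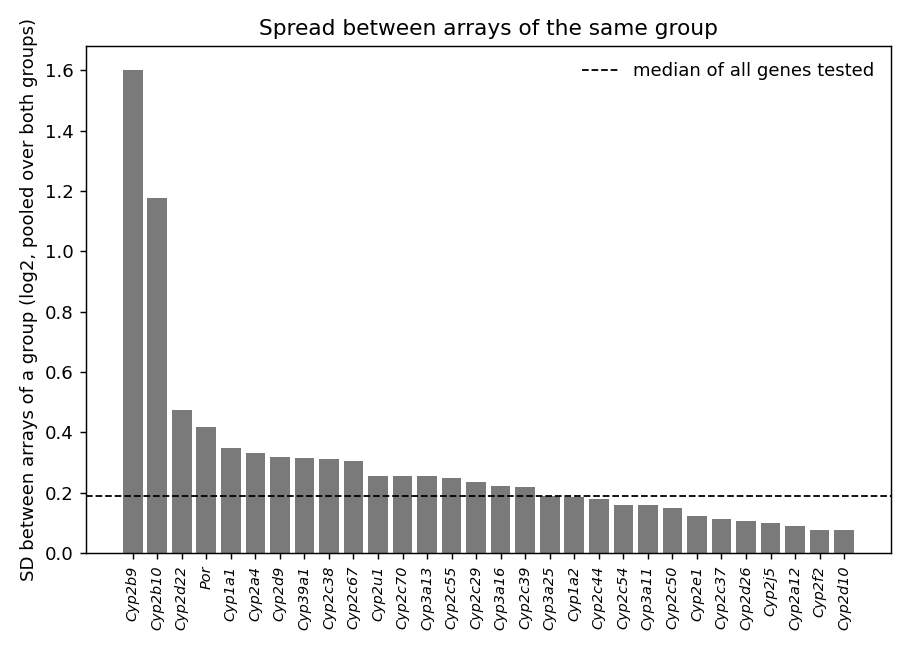
SD between arrays of the same group on the log2 scale, pooled over control and shRaly (bars, y axis), for the 30 genes tested (x axis), with the median of all genes tested as a dashed line at 0.19. Cyp2b9 and Cyp2b10 stand far above the other members.

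The sequences upstream of these genes are shown because Cyp2b10 varied widely between arrays and Cyp2b9 is a close relative, and because Cyp2c29, Cyp2c37 and Cyp2c50, of 1 cluster, had differences of one sign. They are the 100 bases before the RefSeq transcription start, from GRCm38.p6, and capitals mark TATAAA where it occurs. In these 100 bases Cyp2b13 is identical to Cyp2b9.
Cyp2b10 (GRCm38.p6 chr7:25897558-25897657, plus strand): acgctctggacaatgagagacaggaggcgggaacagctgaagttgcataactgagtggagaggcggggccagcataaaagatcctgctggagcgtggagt
Cyp2b9 (GRCm38.p6 chr7:26173309-26173408, plus strand): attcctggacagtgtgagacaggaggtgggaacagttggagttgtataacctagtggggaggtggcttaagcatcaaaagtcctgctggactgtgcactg
Cyp2c29 (GRCm38.p6 chr19:39286985-39287084, plus strand): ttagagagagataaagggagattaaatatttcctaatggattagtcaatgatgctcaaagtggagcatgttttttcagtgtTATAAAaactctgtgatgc
Cyp2c37 (GRCm38.p6 chr19:39992324-39992423, plus strand): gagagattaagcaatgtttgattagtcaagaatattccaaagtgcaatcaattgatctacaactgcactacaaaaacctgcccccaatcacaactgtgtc
Cyp2c50 (GRCm38.p6 chr19:40089579-40089678, plus strand): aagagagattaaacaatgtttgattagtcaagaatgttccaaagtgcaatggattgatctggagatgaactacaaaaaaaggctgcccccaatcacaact

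Over the 250 bases before the start, Cyp2b9 was 99.2% identical to Cyp2b13 and 71.0% to Cyp2b10 in a global alignment, Cyp2c37 was 84.3% identical to Cyp2c50, and Cyp2c29 was 57.6% and 57.5% identical to Cyp2c37 and Cyp2c50. The promoter table held 29 of the 34 genes. On either strand of these 250 bases, TATAAA, the core promoter box, was found in 17 of the 29 genes and in 12.4% of 32851 windows of all genes. AGGTCA, the hexamer of nuclear receptors, was found in 10 genes and in 14% of windows. CAAAGTCCA, a form of the Hnf4a site, was found in 6 genes (Cyp2c40, Cyp2c67, Cyp2c69, Cyp2c70, Cyp3a11 and Cyp3a16) and in 0.384% of windows, and GCGTG, the core of the aryl hydrocarbon receptor site, in Cyp1a1, Cyp2b10 and Por and in 28.2% of windows. None of these motifs contains another. A match describes letters only; close copies such as the Cyp2c genes share theirs.

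Cyp1a1 and Cyp1a2, the oxidases of polycyclic hydrocarbons and of aromatic amines, were not past the threshold. Cyp1a1 was dim but well above background on all 8 arrays, with log2 signals of -3.49, -3.39, -2.91 and -2.77 in controls and -2.16, -2.68, -2.67 and -2.98 in shRaly livers. Array shRaly 1 was the highest, and shRaly 4 lay within the control range. The shRaly mean was 143% of control (95% interval 103% to 201%; log2 difference 0.52, SE 0.21, limma adjusted p = 0.277), but with another background correction (normexp) the log2 difference was 0.23. Cyp1a2, which is expressed in liver without induction, had 3.64, 3.55, 3.69 and 3.51 in controls and 3.34, 3.83, 3.90 and 3.68 in shRaly livers. The shRaly values lay on both sides of the controls, with a log2 difference of 0.09 (SE 0.13, limma adjusted p = 0.777), and the interval, 87.0% to 130% of the control level, bounds it.

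In the Cyp2a subfamily, the signal of Cyp2a4, a testosterone hydroxylase read together with the coumarin hydroxylase gene Cyp2a5, was 7.87, 7.18, 7.12 and 7.97 in controls and 8.17, 8.15, 7.85 and 7.98 in shRaly livers. Controls 2 and 3 were low, while controls 1 and 4 reached the shRaly values. The shRaly mean was 142% of control (log2 difference 0.50, SE 0.21, limma adjusted p = 0.274), and the exon-spanning probe printed above gave 0.38 (SE 0.26). Cyp2a12, another testosterone hydroxylase, had 7.38, 7.58, 7.56 and 7.64 in controls and 7.49, 7.51, 7.50 and 7.38 in shRaly livers. These ranges overlapped almost entirely, with a log2 difference of -0.07 (SE 0.09, limma adjusted p = 0.741).

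The Cyp3a genes, led by Cyp3a11, the main target of the pregnane X receptor, lay close to the control level. Cyp3a11 measured 8.86, 9.06, 8.85 and 9.24 in controls and 8.79, 9.04, 8.77 and 8.85 in shRaly livers. The groups overlapped, and the shRaly mean was 90.9% of control (log2 difference -0.14, SE 0.12, 95% interval -0.40 to 0.13, limma adjusted p = 0.598). The probe shared with Cyp3a41a, Cyp3a41b and Cyp3a44 differed by -0.01 (SE 0.18). Cyp3a13 had 4.22, 3.87, 3.91 and 4.48 in controls and 3.88, 4.32, 4.13 and 4.36 in shRaly livers, a log2 difference of 0.05 (SE 0.16, limma adjusted p = 0.909). Cyp3a16, a gene of fetal liver, and Cyp3a25 had differences of -0.16 (SE 0.15) and -0.18 (SE 0.13). For all 4 the interval stayed within 1.5-fold either way.

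Among the Cyp2d genes, Cyp2d26 was level in both groups, with 9.47, 9.34, 9.31 and 9.44 in controls and 9.42, 9.53, 9.27 and 9.26 in shRaly livers (log2 difference -0.02, SE 0.09, limma adjusted p = 0.933). Cyp2d22 was more variable, at 143%, 87.4%, 76.2% and 105% of the control mean in controls and 47.2%, 93.9%, 113% and 86.7% in shRaly livers. The lowest value was on shRaly 1 and the highest on control 1 (log2 difference -0.30, SE 0.28, limma adjusted p = 0.643). Cyp2d9, the male-biased testosterone hydroxylase, had a log2 difference of -0.27 (SE 0.20) and also its lowest value on shRaly 1, at 6.39 against 6.89 or more on the other 7 arrays. Cyp2d10 differed by 0.01 (SE 0.08).

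Cyp2e1, the pericentral enzyme that oxidises ethanol and acetaminophen, measured 9.40, 9.51, 9.53 and 9.68 in controls and 9.45, 9.72, 9.52 and 9.68 in shRaly livers. The ranges were nearly the same, and the log2 difference was 0.07 (SE 0.10, limma adjusted p = 0.797), or -0.11 (SE 0.13) with the other Cyp2e1 probe. Cyp2f2, a periportal enzyme known for activating naphthalene, differed by -0.12 (SE 0.08), and Cyp2j5, an epoxygenase, by -0.07 (SE 0.09). Cyp39a1, which hydroxylates oxysterols on the way to bile acids, differed by 0.30 (SE 0.20). Cyp2u1 differed by 0.23 (SE 0.16) with its repeat probe and by 0.14 and 0.28 with the others.

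**Figure D4:**
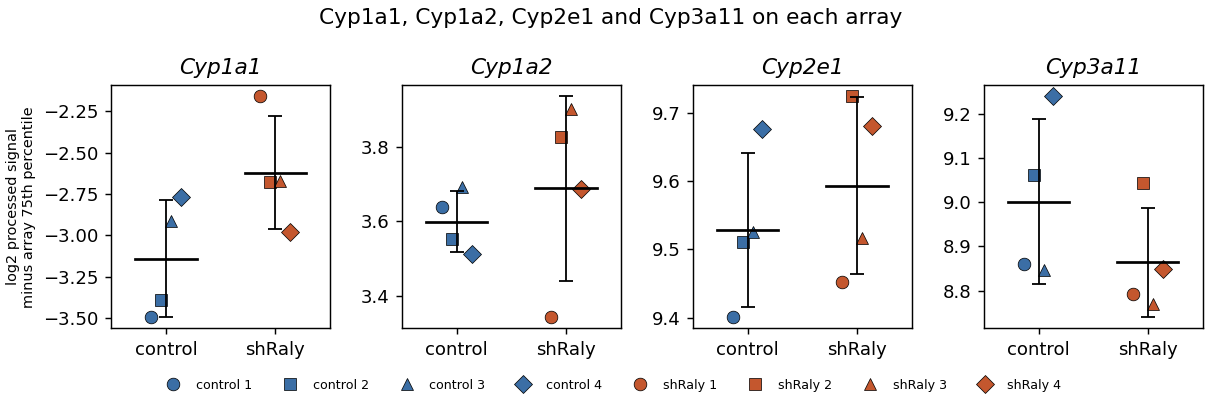
Log2 processed signal minus the array's 75th percentile (y axis, a separate scale for each gene) of Cyp1a1, Cyp1a2, Cyp2e1 and Cyp3a11 on each control and shRaly array, with the group mean (horizontal line) and SD (bar), n = 4 each. The groups overlap in all 4 genes, and shRaly 1 is the highest array for Cyp1a1 and the lowest for Cyp1a2.

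Por, whose product passes electrons to every microsomal P450, had the largest difference above 0 of the 30 genes. Its log2 signals were 6.90, 5.87, 5.93 and 6.65 in controls and 6.87, 6.97, 6.53 and 7.23 in shRaly livers. Controls 2 and 3 were low, and controls 1 and 4 lay within the shRaly range. The shRaly mean was 148% of control (log2 difference 0.56, SE 0.25, 95% interval -0.01 to 1.14, limma adjusted p = 0.316).

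**Figure D5:**
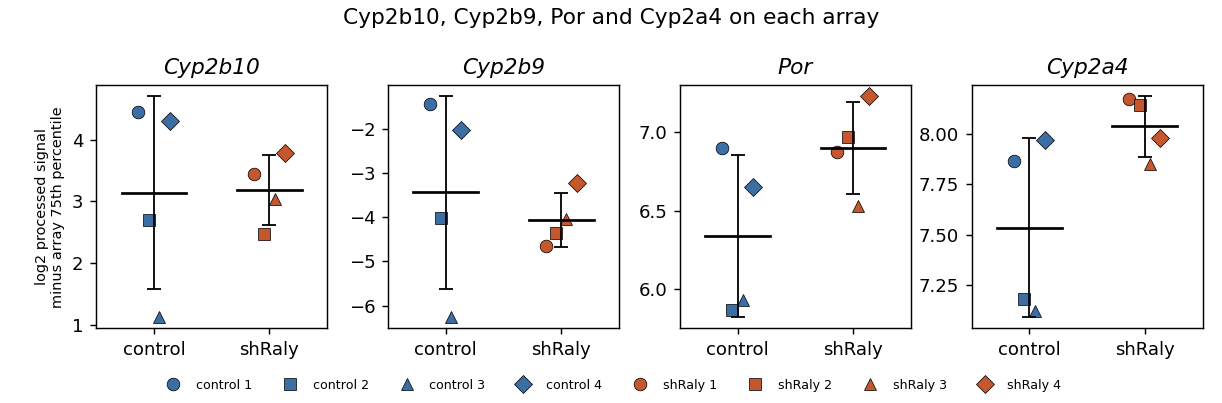
Log2 processed signal minus the array's 75th percentile (y axis, a separate scale for each gene) of Cyp2b10, Cyp2b9, Por and Cyp2a4 on each control and shRaly array, with the group mean (horizontal line) and SD (bar), n = 4 each. In all 4 genes controls 1 and 4 lie above controls 2 and 3, and the control spread is wider than that of the shRaly arrays.

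The receptors that control these genes, and the proteins that serve their enzymes, were not past the threshold. Of 13 receptors and liver factors tested 0 passed, with a median log2 difference of -0.06. As 1.21% of all genes passed, a count of 0 in lists as short as these is not a result about their genes. Ppara, the receptor of fatty acids, had a log2 difference of -0.58 (SE 0.11, limma adjusted p = 0.0515) and did not overlap between the groups, and Cebpa, a liver transcription factor, had -0.28 (SE 0.11, limma adjusted p = 0.252). Of the sensors themselves, named after their values were seen, Nr1i3 stood at -0.11 (SE 0.14), Nr1i2 at 0.19 (SE 0.17) and Ahr at 0.24 (SE 0.20). Of 13 electron donors and genes of haem supply, the member Por among them, 0 passed (median 0.05). Cyb5r3, the cytochrome b5 reductase, had -0.37 (SE 0.13, limma adjusted p = 0.228), and Alas1, the first enzyme of haem synthesis, also named after its value was seen, 0.85 (SE 0.45, limma adjusted p = 0.397).

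Known targets of the same sensors did not pass the threshold, where 1.21% of all genes did. Of 8 targets of the aryl hydrocarbon receptor tested, 2 of them the members Cyp1a1 and Cyp1a2, 0 passed, with a median of 0.12. Nqo1, a quinone reductase that Nfe2l2 also controls, was higher on all 4 shRaly arrays than on any control (log2 difference 0.93, SE 0.24, limma adjusted p = 0.105). Of 15 targets of the constitutive androstane and pregnane X receptors 0 passed, with a median of 0.04, which is the value of Cyp2b10. The members Cyp2b10, Cyp2c29, Cyp2c37, Cyp2c55, Cyp3a11 and Por are 6 of the 15. Gadd45b, a stress-induced gene, had 0.68 (SE 0.18, limma adjusted p = 0.115), again with no overlap between the groups.

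Other enzymes of drug metabolism also gave 0 genes past the threshold, beside 1.21% of all genes. Of 14 UDP-glucuronosyltransferases and suppliers of their cofactor 0 passed (median -0.02), with Ugdh, which makes UDP-glucuronic acid, at 0.29 (SE 0.09, limma adjusted p = 0.176) and Ugp2 at 0.15 (SE 0.13). Of 7 sulfotransferase genes 0 passed (median 0.02); Sult1e1, the oestrogen sulfotransferase, had the largest difference, 1.97 (SE 0.68, limma adjusted p = 0.206), and was well above background on 3 arrays of each group, and Sult1c2 had 0.38 (SE 0.14). Of 22 carboxylesterase, flavin monooxygenase, epoxide hydrolase and related genes 0 passed (median -0.06), with Fmo4 at -0.68 (SE 0.15, limma adjusted p = 0.0792) and Fmo1 at 0.30 (SE 0.11).

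P450 genes of other kinds, with the member Cyp39a1 among them, were tested in the same way, where 1.21% of all genes passed. Of 14 P450 genes of fatty acid and eicosanoid oxidation 0 passed (median -0.10, with 11 below 0 beside 53.1% of all genes), with Cyp2j6 at -0.38 (SE 0.17) and Cyp4v3 at -0.21 (SE 0.10). Of 12 of sterol, bile acid and vitamin metabolism 1 passed: Cyp51, the lanosterol demethylase of cholesterol synthesis, fell by 0.77 on the log2 scale (SE 0.15, limma adjusted p = 0.0488), while Cyp17a1, a steroid hydroxylase, had 0.56 (SE 0.27, limma adjusted p = 0.353). The call of Cyp51 held in 8 of 18 alternative settings, with adjusted p between 0.0148 and 0.145.

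Sex-biased and zonated liver genes, to which several members belong, gave 0 genes past the threshold, beside 1.21% of all genes. Of 10 female-biased genes tested the median was -0.05, and of 16 male-biased genes 0.01, with Moxd1 at 2.53 but an SE of 1.45. The male-biased list includes Cyp2u1, read by its repeat probe. The median of 12 pericentral genes was -0.01, with Rnf43 at -0.49 (SE 0.14, limma adjusted p = 0.137) and Tbx3 at -0.39 (SE 0.23), and that of 11 periportal genes 0.15, with Pck1 at 0.39 (SE 0.13, limma adjusted p = 0.189) and Hal at -0.25 (SE 0.10). The medians of 7 marker lists of hepatocytes, Kupffer, endothelial, stellate and bile duct cells, lymphocytes, and intestine and kidney lay between -0.51 and -0.04, and 1 of their 64 genes tested passed. It was Alpi, an alkaline phosphatase of intestine, lower in shRaly livers (limma adjusted p = 0.0348), where no array had it well above background. Alpi entered the test through the 4 control arrays alone, so the filter favoured a lower shRaly value. It was past the threshold in 9 of the 13 alternative settings that tested it. Over these settings its limma adjusted p ran from 0.00609 to 0.373 and its log2 difference from -2.76 to -0.31. They reuse the same arrays, so the count does not lift the limit set by the filter.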

How the data were processed

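Liver RNA of 4 control and 4 shRaly samples was measured on single-colour Agilent arrays, and groups and replicate numbers were taken from the sample titles. The deposited array files hold scanner intensity values, written by Agilent Feature Extraction (11.5.1.1 in the file headers, 11.5.1.11 in the submitters' processing notes). The intensity used here is the deposited processed signal, background-subtracted and not scaled between arrays per the file headers, and the deposited table of the series was equal to it for all 62976 spots of each array. How the authors normalized their values is not stated in those sources.

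From the log2 of this signal the 75th percentile of the array's non-control spots (7.86 to 8.19) was subtracted. Between 137 and 163 non-uniform or outlier spots per array were set to missing, no spot was saturated, and spots of a probe were averaged. Genes carry the name in the files: 32413 probes had one, of 23456 genes. A probe was kept if well above background on at least 4 of 8 arrays with at least 3 values per group, and the kept probe with the highest mean represented its gene. The groups were compared with limma 3.58.1 in R 4.3.3 (lmFit, eBayes, Benjamini-Hochberg adjustment over 14591 genes, threshold 0.05), a step tested on simulated data. Raly was also compared with an exact permutation test. Precision is limited by the number of arrays: 45.9% (shRaly 2) to 51.1% of non-control spots were well above background, and arrays correlated over genes at 0.991 to 0.995 among controls and 0.987 to 0.994 among shRaly arrays.

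The members and all gene lists were chosen with earlier results of these data known. Genes given in full were those past the threshold, the 8 members of smallest p, Cyp1a1, Cyp1a2, Cyp2b10, Cyp2c29, Cyp2e1, Cyp3a11, Por, the brightest and dimmest member of each subfamily, and members whose groups did not overlap. From each other list came the genes past the threshold and the 2 of smallest p, except the marker lists, given as a range. Replicate numbers did not pair the arrays: same-numbered arrays had correlations of 0.09, -0.02, -0.07 and 0.13 in their deviations from the group means. Probe coordinates are those of the files (mm9), where exon and UTR annotation was not used. Promoters and current symbols are RefSeq's (GRCm38.p6). The alternatives were normexp background correction with offset 50, quantile and median scaling, other dim-probe filters, the mean over a gene's probes, naming by RefSeq accession, the replicate block, keeping marked spots, the deposited series table, and leaving out each array.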

Additional observations from a re-analysis of the deposited data

Results flagged for a closer look

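Among the 4 shRaly arrays, shRaly 1 stood apart from the others for 3 genes of the Cyp2c cluster, by Dixon's criterion for a lone extreme value at the 95% level. Its log2 signal was 5.89 for Cyp2c38, where the other shRaly arrays lay between 6.31 and 6.37. For Cyp2c39 it was 3.89, with the others between 4.28 and 4.35. For Cyp2c50 it was 6.91, with the others between 7.23 and 7.30. The 30 genes and Raly gave 62 groups of 4 arrays to examine, and chance alone picks out about 1 in 20 such groups. The 3 of 62 found are near that share, and Cyp2c50 only just reached the criterion. All 3 cases are of the same array and of genes in 1 cluster, so they are not independent of one another. The Raly signal was also lowest on shRaly 1, at 51.8% of the control mean. Its relation to the Cyp2c values was not tested.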

How the results depend on the processing

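None of the members tested passed the threshold under any of the 18 alternatives (10 settings and 8 leave-outs of an array). The smallest limma adjusted p of a member was 0.0755, with normexp. Between 4 and 10 members had an unadjusted limma p under 0.05 in the alternatives. In the main setting 8 of 30 did, beside 16.2% of all genes. The share of all genes under each alternative is not given here. Of 534 member values under these alternatives 518 kept their sign. The 16 that did not came from 5 genes close to 0 or widely spread. They were, with normexp, Cyp2d10 at -0.037 and Cyp3a13 at -0.019; with quantile scaling, Cyp2d26 at 0.028; with median scaling, Cyp2d10 at -0.018; with the mean over probes, Cyp2e1 at -0.023. With an array left out, Cyp2d10 ran from -0.036 (without control 1) to 0.041, Cyp2d26 from -0.076 to 0.013 (above 0 without control 1, shRaly 3 or shRaly 4), and Cyp3a13 from -0.030 to 0.17 (below 0 without control 2, control 3 or shRaly 4). Cyp2b10 ran from -0.63 (without control 3) to 0.48 (without control 1), and was also below 0 without control 2, shRaly 1 or shRaly 4.

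The Cyp1a median was 0.14 with normexp in place of 0.31, and the Cyp2c median stayed between -0.37 and -0.23 under every alternative. The Cyp2d median ran from -0.20 to -0.04 (without shRaly 1) over the leave-outs and was -0.22 with normexp, and the Cyp3a median ran from -0.21 to -0.03 (without control 4). The Cyp2b median ran from -1.10 to -0.13 over the leave-outs that kept both genes; in the other 4, Cyp2b9 no longer passed the filter and Cyp2b10 alone stood at -0.16 to 0.48. Raly passed with normexp (-0.71, adjusted p = 0.0121) and without shRaly 2 (-0.80, adjusted p = 0.0315), and its leave-outs ran from -0.80 to -0.58. The count over all genes, 177, was 42 with no filter on dim probes and 5 (without control 3) to 277 (without shRaly 2) with an array left out. With the replicate block, a pairing the data do not bear out, it was 44, and no member passed. The causes were not tested. Signal over background limited Cyp2b13 and Cyp3a44, with no usable signal, and Cyp2b9, seen on 4 arrays.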
